A study of Homo sapiens with 18 samples.

Results

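The 56 genes described here encode the chains of collagens and laminins. They were found in the table of raw counts as the genes whose symbol is that of a collagen alpha chain or of a laminin alpha, beta or gamma chain, and they make up 56 of the table's 28395 genes. Of them, 44 are collagen chains and 12 are laminin chains. The values come from RNA sequencing of PC-3 cells, an androgen-independent human prostate cancer line.

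Collagens and laminins are both secreted as trimers. Laminins join one alpha, one beta and one gamma chain, and together with the network of type IV collagen they build the basement membrane on which epithelial cells, those of the prostate among them, rest. Fibrillar collagens such as types I and II give connective tissue its strength, type VI collagen forms beaded filaments around cells, and a few collagens stay in the plasma membrane. Since a trimer is built from set partners, the chains of 1 trimer are described together.

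Detached PC-3 cells were either pushed in suspension through a fine needle, which gave a brief pulse of fluid shear stress (sheared cells), or kept in suspension for that time (static cells). All cells were then held in wells coated with poly-HEMA, to which cells do not attach, in serum-free DMEM with insulin, transferrin, selenium and albumin, and cytoplasmic RNA was collected later. The 6 groups of 3 libraries each were sheared and static cells at 3 h, sheared and static cells at 12 h, and sheared and static cells at 24 h. At a given time, the sheared and static library with the same number came from 1 pool of cells, and pools of different times were independent. The 3 h libraries carry another batch date than those at 12 h and 24 h, so that time and batch date cannot be told apart between 3 h and the later times.

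Libraries held 16400487 to 25862360 counts. The sheared 24 h replicate 3 stood apart, with a TMM factor of 0.721 and 17007 genes detected, the lowest of the 18 libraries on both measures. The epithelial and PC-3 markers KRT8, KRT18, KRT19, EPCAM, CDH1 and VIM were present in every library. Of these, edgeR called CDH1 lower in sheared cells at 12 h (206 ± 23.6 CPM in sheared and 293 ± 18.9 CPM in static cells, SD, n = 3; log2 fold change -0.51, adjusted p = 0.00709) and at 24 h (252 ± 35.8 CPM in sheared and 351 ± 15.7 CPM in static cells; -0.49, adjusted p = 0.00577). KRT8 was higher in sheared cells at 12 h (1174 ± 97.8 CPM in sheared and 778 ± 49.4 CPM in static cells; 0.59, adjusted p = 0.0069). The part of these markers in the changes of the chains was not tested. The summed level of the list, in CPM (counts scaled to library size with TMM factors), was at 3 h 3861 to 3916 in sheared and 3312 to 3669 in static cells, at 12 h 3792 to 5015 in sheared and 4500 to 4778 in static cells, and at 24 h 6191 to 10070 in sheared and 6126 to 8912 in static cells. KLK3, which PC-3 cells lack, had a median of 0 CPM. Of 7 fibroblast markers, 2 (PDGFRA and LUM) had a mean of at least 1 CPM, THY1 and FAP had a median of 0 CPM, and the summed level of the list stayed between 2.04 and 6.79 CPM over all groups. As in any bulk measurement, fewer cells of a kind and less RNA per cell cannot be told apart.

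A small set of chains carried most of the message. To compare genes with each other, CPM values were divided by the length of the gene's exons, and means were taken over the 18 libraries. COL6A2 had the highest level, 142 ± 73.8 CPM per kilobase (SD over 18 libraries, as in the next sentences), and COL6A1 followed at 135 ± 62.2. These chains of type VI collagen together held 46.6% of the summed level of all 56 chains and 68.6% of the counts of all collagen genes. LAMB3 stood at 99.8 ± 55.3 and LAMA3 at 27.2 ± 7.06 CPM per kilobase, and both are chains of the epithelial laminin that anchors hemidesmosomes. These SDs span the 6 groups, and the neighbours COL6A2 and COL6A1 did not differ beyond them.

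A group of chains lay between 10.9 and 19.9 CPM per kilobase. They were COL13A1 (19.9 ± 4.52), a collagen of the plasma membrane found at adhesion sites, COL5A2 (18.3 ± 3.84), a chain of the type V collagen that limits fibril width, LAMA5 (16.0 ± 3.23), the alpha chain of many epithelial basement membranes, LAMC1 (15.2 ± 3.26), the common gamma chain, LAMB2 (13.99 ± 6.20), COL18A1 (12.0 ± 3.12), the source of endostatin, and LAMB1 (10.9 ± 2.54). No 2 neighbours in this order were farther apart than their SDs. A gap followed, with COL12A1 next at 3.33 ± 2.69 CPM per kilobase. In all, 23 chains, 15 of collagens and 8 of laminins, had a mean of at least 1 CPM per kilobase. With the longest transcript in place of all exons, COL4A2 followed the gap instead, at 5.39 CPM per kilobase, and COL12A1 ranked 18. COL18A1 carries a limit, since 16.4% of its exon length overlaps SLC19A1 on the opposite strand and whether counting used strand is not known.

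**Figure D1:**
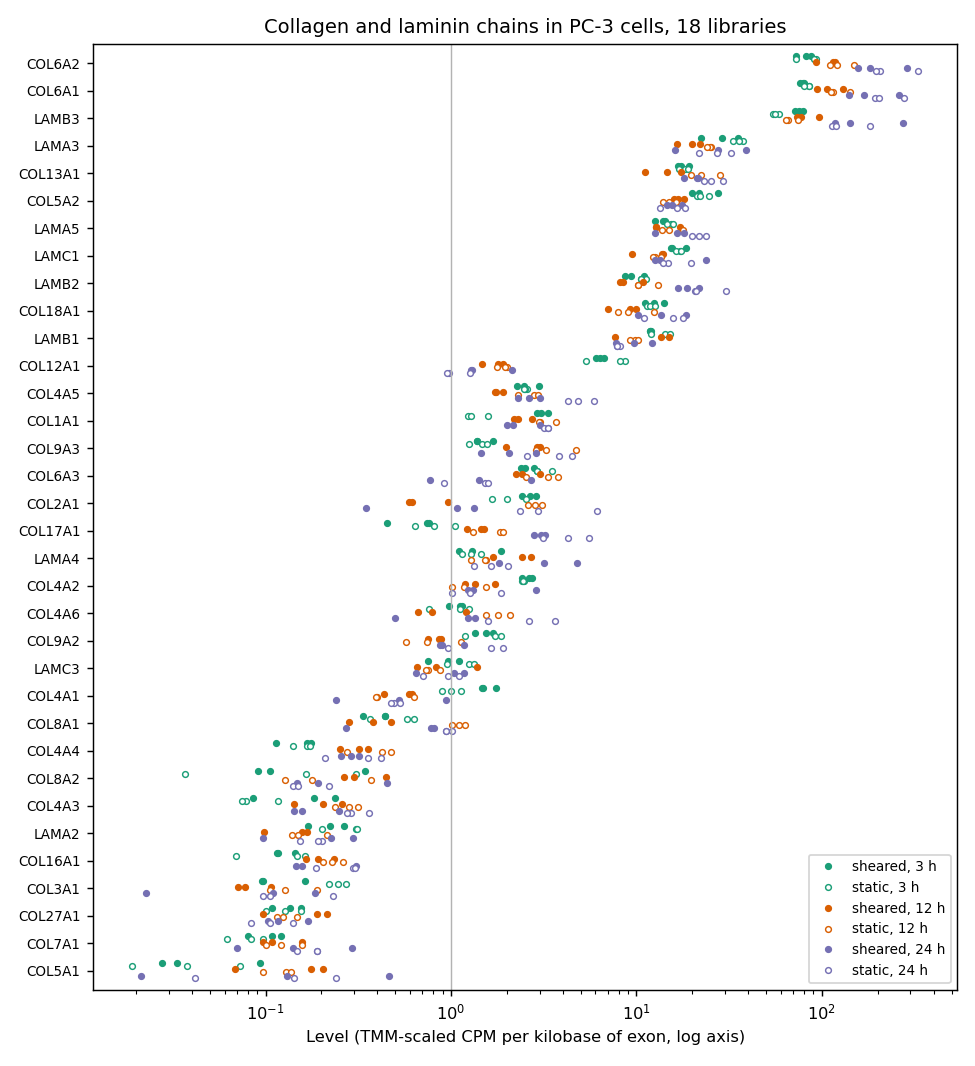
Level of collagen and laminin chains in each of the 18 libraries, in TMM-scaled CPM per kilobase of exon on a log axis, in order of their mean down to COL5A1, for the chains reported here, with sheared libraries filled, static libraries open, and colours for the 3 times. The grey line marks 1 CPM per kilobase, and COL6A1, COL6A2 and LAMB3 lie above 50 in every library.

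Other chains were scarce or missing. At least 1 read was present in every library for 37 chains, and COL19A1, COL25A1 and COL9A1 had none in any. A count of 0 allows up to 3 counts, which is 0.183 CPM in the shallowest library and 0.116 CPM in the deepest, counting error only. Where a collagen is built from several chains, they were not equally present. COL1A1, the main chain of type I collagen, had 2.63 ± 0.741 CPM per kilobase, while its partner COL1A2 had 0.0192 ± 0.0212, with 88 counts in all 18 libraries together. COL6A3, which joins COL6A1 and COL6A2 in the type VI trimer, had 2.40 ± 0.854 CPM per kilobase. The filter on low counts kept 38 chains for the comparison of sheared with static cells and dropped 18, of which 16 were collagens and 2 were laminins (LAMA1 and LAMB4). COL1A2 passed through its 3 h libraries, and COL24A1, with 134 counts in total, did not pass.

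At 3 h, COL1A1 was the 1 chain called higher in sheared than in static cells. It had 29.9, 32.5 and 28.6 CPM in sheared cells, against 12.1, 12.5 and 15.5 CPM in static cells. The groups were far apart, and the sheared library was the higher one in every pool. The log2 fold change, sheared over static, was 1.19 ± 0.16 (SE, n = 3 pools; adjusted p = 0.000298 by edgeR's quasi-likelihood test, with Benjamini-Hochberg adjustment over all genes tested, as for every adjusted p given). Among all 15189 genes tested, 1.12% were higher by the same threshold of 0.05 and 0.342% were lower, and no chain was lower by edgeR or by DESeq2.

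The other 37 chains did not pass at 3 h. Of all 38 chains, 7 had an unadjusted p below 0.05, COL1A1 among them. The median log2 fold change of the 38 chains was -0.037, beside 0.005 over all genes. Sheared and static libraries did not overlap in 8 of the 38 chains, where the share was 18.8% over all genes. LAMB3 came nearest to the threshold, with 350.8, 336.2 and 368.6 CPM in sheared cells, against 255.7, 274.1 and 263.1 CPM in static cells. Those ranges did not overlap, and the log2 fold change was 0.41 ± 0.13 with an adjusted p of 0.179. COL4A1 had 21.8, 21.8 and 25.6 CPM in sheared cells, against 13.2, 16.7 and 14.7 CPM in static cells, again with no overlap (0.64 ± 0.26, adjusted p = 0.401). When the 6 libraries of 3 h were fitted alone, COL1A1, COL2A1, COL4A1 and LAMB3 were higher, and COL6A3 and LAMB1 were lower.

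At 12 h, 5 collagen chains were lower and 1 laminin chain was higher in sheared than in static cells. Such differences are against static cells of the same time, not against an earlier time. Over all genes, 4.55% were lower and 6.29% higher. The median log2 fold change of the 38 chains was -0.189, beside -0.008 over all genes, and 25 chains had a negative value and 13 a positive one. The ranges of sheared and static libraries did not overlap in 11 chains, and in 29% of all genes.

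The chain furthest below its level in static cells was COL2A1, that of the main fibrillar collagen of cartilage. COL2A1 had 3.94, 6.42 and 4.08 CPM in sheared cells at 12 h, against 17.3, 18.9 and 20.6 CPM in static cells. No sheared library came near a static one, and the log2 fold change was -2.00 ± 0.31 (adjusted p = 0.00199).

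COL8A1, a chain of the short collagen that forms networks under endothelia, had 2.65, 4.44 and 3.55 CPM in sheared cells at 12 h, against 10.3, 9.47 and 11.1 CPM in static cells. The groups were well separated, with a log2 fold change of -1.55 ± 0.30 (adjusted p = 0.00391). COL13A1, the membrane collagen, had 65.2, 101.7 and 86.5 CPM in sheared cells, against 116.5, 130.4 and 166.2 CPM in static cells. All sheared values were below all static ones (-0.71 ± 0.13, adjusted p = 0.00257).

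LAMA4, the laminin alpha chain of vessel and mesenchymal basement membranes, went the other way. It had 28.0, 31.1 and 19.6 CPM in sheared cells at 12 h, against 17.8, 17.6 and 14.9 CPM in static cells. The ranges did not overlap, and the log2 fold change was 0.63 ± 0.16 (adjusted p = 0.017). This call was lost without the 12 h pool of replicate 1 (adjusted p = 0.106) or of replicate 2 (adjusted p = 0.183), and in the fit without the pool block (adjusted p = 0.241).

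At 24 h, 6 chains were lower and 1 was higher in sheared than in static cells, where 8.07% of all genes were lower and 9.13% higher. COL2A1, COL4A5 and COL4A6 were lower than in static cells at both later times, and LAMA4 was higher at both. All 6 chains past the threshold at 12 h had the same sign at 24 h, and all 7 past it at 24 h had the same sign at 12 h. Chains that passed at both times enter both counts, and the agreement of sign over all genes was not counted. The median log2 fold change of the 38 chains was -0.180, beside -0.021 over all genes, and sheared and static libraries did not overlap in 10 chains, and in 15.1% of all genes.

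COL2A1 had 2.31, 7.15 and 8.90 CPM in sheared cells at 24 h, against 19.6, 41.0 and 15.6 CPM in static cells. The static libraries were far apart from each other, yet all lay above the sheared ones (-2.08 ± 0.32, adjusted p = 0.000796). LAMA4 had 36.9, 21.0 and 55.3 CPM in sheared cells, against 19.0, 15.4 and 23.5 CPM in static cells. The lowest sheared library was below the highest static one, but the sheared library was higher in every pool (0.89 ± 0.16, adjusted p = 0.000968).

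COL9A3, LAMA5 and COL1A1 were also lower in sheared than in static cells at 24 h, by smaller differences. COL9A3, a chain of the type IX collagen that coats cartilage fibrils, had 9.92, 13.9 and 6.98 CPM in sheared cells, against 18.4, 21.7 and 12.4 CPM in static cells. The ranges overlapped, while each sheared library was below its static partner (-0.79 ± 0.19, adjusted p = 0.0076; 0.0933 without the pool block). LAMA5 had 258.1, 236.0 and 179.4 CPM in sheared cells, against 283.8, 339.5 and 310.6 CPM in static cells, with no overlap (-0.48 ± 0.14, adjusted p = 0.0211).

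COL1A1, which was higher in sheared cells at 3 h, was lower in them at 24 h. It had 29.6, 19.7 and 21.2 CPM in sheared cells, against 31.3, 32.7 and 32.7 CPM in static cells. The ranges did not overlap, with a log2 fold change of -0.48 ± 0.16 and an adjusted p of 0.0471, just under the threshold. LAMA5 and COL1A1 both lost their calls without the library that stood apart, the sheared 24 h replicate 3 (adjusted p = 0.155 and 0.182). Without the pool block the adjusted p was 0.0838 and 0.121. Both calls were also lost without the 24 h pool of replicate 2 (adjusted p = 0.0602 and 0.198). In all, COL1A1 lost its call in 11 of 15 alternatives, RLE size factors in place of TMM among them (adjusted p = 0.055). Its adjusted p ranged from 0.0182 to 0.211 over the 15. Of the chains that were lower in sheared cells at 12 h, 2 did not pass at 24 h. Their log2 fold change was -0.73 ± 0.30 for COL8A1 (adjusted p = 0.1004) and -0.36 ± 0.13 for COL13A1 (adjusted p = 0.064). COL12A1 lay just beyond the threshold, with 16.0, 16.1 and 26.5 CPM in sheared cells, against 15.9, 12.1 and 11.9 CPM in static cells (0.53 ± 0.18, adjusted p = 0.0526).

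**Figure D2:**
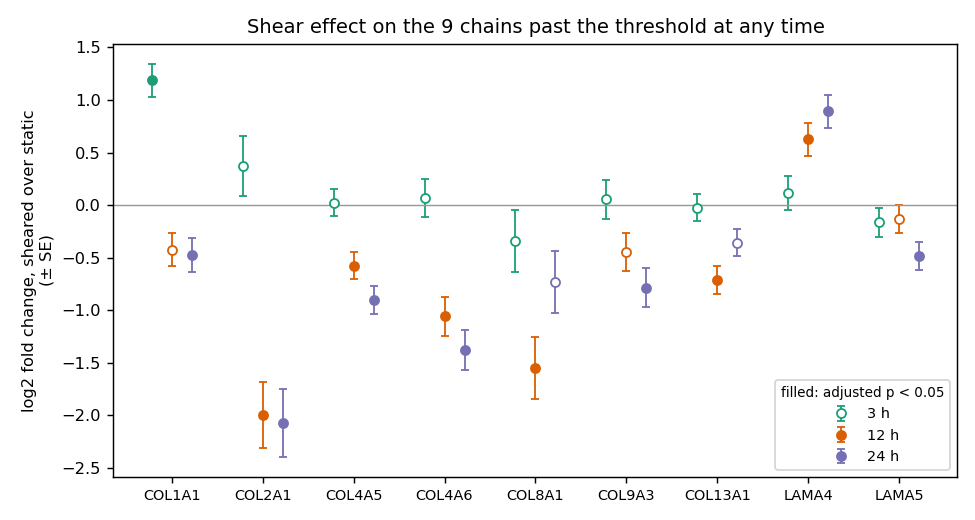
Log2 fold change of sheared over static cells, with its SE, for the 9 chains past the threshold at any time, at 3 h (green), 12 h (orange) and 24 h (violet), with filled points where the adjusted p was below 0.05. COL1A1 stands at 1.19 at 3 h and below 0 later, COL2A1 near -2 at 12 h and 24 h, and LAMA4 is the 1 chain above 0 at both later times.

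**Figure D3:**
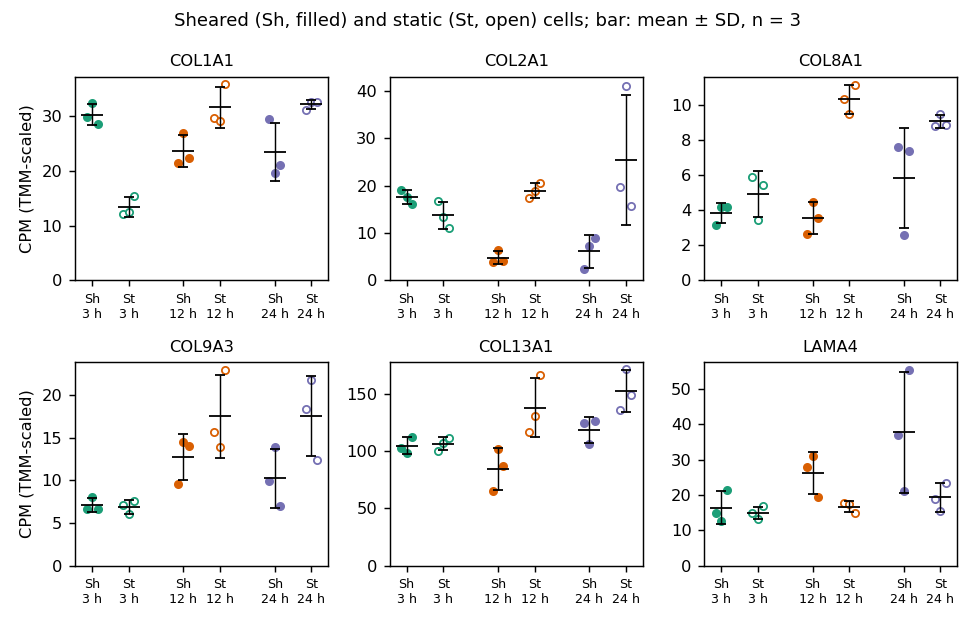
Level in TMM-scaled CPM of 6 chains in each library, sheared (Sh, filled) left of static (St, open) at each time, with bars for the mean and SD of 3 libraries. Sheared and static libraries do not overlap for COL1A1 at 3 h, 12 h and 24 h, and for COL2A1, COL8A1 and COL13A1 at 12 h and 24 h. Those of LAMA4 do not overlap at 12 h but overlap at 24 h, and those of COL9A3 overlap at each time.

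The difference between times was tested in the same model. The shear effect at 12 h minus that at 3 h was negative and past the threshold for 3 chains, where 0.895% of all genes were, and positive for none, where 0.514% were. These were COL1A1 (-1.61 ± 0.22, adjusted p = 0.00113), COL2A1 (-2.37 ± 0.42, adjusted p = 0.0157) and COL4A6 (-1.13 ± 0.26, adjusted p = 0.0361). Batch date goes with this contrast. Between 24 h and 12 h, which share a batch date, no chain passed, and 1 had an unadjusted p below 0.05. Over all genes, 0.586% had a larger and 0.079% a smaller value at 24 h.

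Type IV collagen, the network of the basement membrane, is encoded by 6 genes that lie in head-to-head pairs, each pair sharing a short stretch between its start sites. RefSeq (GRCh38.p14) places 126 bases between the starts of COL4A1 and COL4A2 on chromosome 13. On chromosome 2 it places 418 bases between the start of COL4A3 and the COL4A4 start used here, at position 227164205. The COL4A4 gene extends to position 227164488, nearer to COL4A3, so part of the COL4A3 window below lies inside COL4A4. On the X chromosome 379 bases lie between COL4A6 and COL4A5, and COL4A6 has a second start 1415 bases away. The whole stretch between COL4A1 and COL4A2 (chr13:110307158-110307283, plus strand), the 250 bases before the start of COL4A3 on the side of COL4A4 (chr2:227164374-227164623, plus strand) and the 250 bases before the start of COL4A5 on the side of COL4A6 (chrX:108439588-108439837, plus strand) are shown because both partners of each pair passed in the same direction in a comparison below. Capitals mark CCAAT or its reverse complement ATTGG, and GGGCGG or its reverse complement CCGCCC.
COL4A1/COL4A2: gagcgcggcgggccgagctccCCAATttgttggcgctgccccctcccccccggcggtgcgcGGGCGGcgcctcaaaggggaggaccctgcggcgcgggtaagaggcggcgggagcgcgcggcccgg
COL4A3: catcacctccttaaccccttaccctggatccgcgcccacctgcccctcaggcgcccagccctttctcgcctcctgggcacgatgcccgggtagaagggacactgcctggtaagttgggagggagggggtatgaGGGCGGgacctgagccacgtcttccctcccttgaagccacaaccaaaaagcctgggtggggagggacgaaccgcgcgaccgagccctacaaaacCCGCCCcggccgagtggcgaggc
COL4A5: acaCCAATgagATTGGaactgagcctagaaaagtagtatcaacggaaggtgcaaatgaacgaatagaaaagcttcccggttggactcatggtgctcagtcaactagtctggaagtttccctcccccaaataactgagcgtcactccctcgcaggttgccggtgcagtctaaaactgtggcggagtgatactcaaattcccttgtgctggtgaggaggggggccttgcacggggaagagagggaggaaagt

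The stretch between COL4A1 and COL4A2 held 1 CCAAT and 1 GGGCGG, searched on both strands. The COL4A3 window held 0 CCAAT and 2 GGGCGG, 1 on each strand, and the COL4A5 window held 2 CCAAT, 1 on each strand, and 0 GGGCGG. None of the 3 held TATAAA. Of 35116 RefSeq windows, CCAAT was in 21.1% and GGGCGG in 34.6% when 126 bases long, and in 32.0% and 42.6% when 250 bases long. TATAAA was in 5.87% of the shorter and 10.7% of the longer windows. Of the 56 chains, 41 had an entry in this table of promoters.

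Of the 3 pairs, COL4A5 and COL4A6 passed the threshold in sheared cells, and the difference between pairs was not tested. Both chains were lower in sheared than in static cells at 12 h and at 24 h. Mean COL4A6 in sheared cells was 10.0 CPM at 3 h, 8.19 CPM at 12 h and 9.54 CPM at 24 h. In static cells it was 9.70, 16.7 and 24.3 CPM at these times. Change with time in sheared cells was not tested. COL4A5 had 20.7, 20.4 and 22.7 CPM in sheared cells at 12 h, against 27.3, 33.1 and 34.8 CPM in static cells. At 24 h it had 36.0, 27.2 and 31.3 CPM in sheared cells, against 69.8, 57.0 and 50.5 CPM in static cells. The groups overlapped at neither time, and the log2 fold change was -0.57 ± 0.13 at 12 h (adjusted p = 0.0103) and -0.90 ± 0.13 at 24 h (adjusted p = 0.000155).

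COL4A6 had 6.13, 7.28 and 11.1 CPM in sheared cells at 12 h, against 14.4, 16.6 and 19.3 CPM in static cells. At 24 h it had 12.5, 11.5 and 4.603 CPM in sheared cells, against 33.6, 24.5 and 14.7 CPM in static cells. Sheared and static libraries were again apart at both times, with a log2 fold change of -1.06 ± 0.19 at 12 h (adjusted p = 0.00191) and -1.38 ± 0.19 at 24 h (adjusted p = 8.39e-05). Both calls at 24 h held in every alternative tried. At 12 h they were lost without the pool block (adjusted p = 0.0617 for COL4A5 and 0.103 for COL4A6), and that of COL4A5 also without the 12 h pool of replicate 2 (adjusted p = 0.110) or replicate 3 (adjusted p = 0.0518). At 3 h the log2 fold change was 0.02 ± 0.13 (adjusted p = 0.982) for COL4A5 and 0.07 ± 0.18 (adjusted p = 0.962) for COL4A6.

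The other pairs did not pass the threshold at any time. COL4A1 and COL4A2, the chains of the type IV collagen found in nearly all basement membranes, had log2 fold changes of 0.22 ± 0.28 and 0.20 ± 0.18 at 12 h (adjusted p = 0.668 and 0.525) and of 0.03 ± 0.29 and 0.33 ± 0.18 at 24 h (adjusted p = 0.955 and 0.218). COL4A3 and COL4A4, known from the kidney filter, were scarce, at 0.205 and 0.271 CPM per kilobase on average. COL4A3 had 1.43, 2.27 and 1.30 CPM in sheared cells at 24 h, against 2.63, 3.27 and 2.51 CPM in static cells, which did not overlap (-0.77 ± 0.33, adjusted p = 0.114). Its partner COL4A4 had a log2 fold change of -0.15 ± 0.30 (adjusted p = 0.784).

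**Figure D4:**
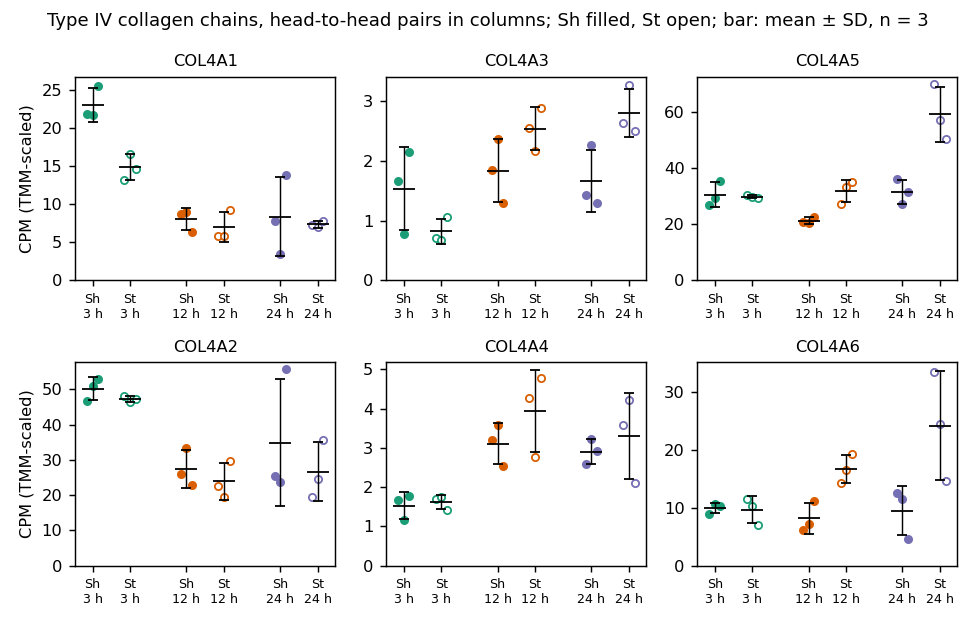
Level in TMM-scaled CPM of the 6 type IV collagen chains in each library, with head-to-head partners in the same column, sheared (Sh, filled) left of static (St, open), and bars for the mean and SD of 3 libraries. COL4A5 and COL4A6 are lower in sheared cells at 12 h and 24 h, COL4A1 and COL4A2 have their highest means at 3 h in both groups, and COL4A3 and COL4A4 are lowest then in static cells.

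Most of the abundant chains did not pass the threshold in sheared cells. COL6A1 had 896.0, 749.2 and 1390 CPM in sheared cells at 24 h, against 1039, 1080 and 1475 CPM in static cells. The ranges overlapped, and the log2 fold change was -0.28 ± 0.13 (adjusted p = 0.168). COL6A2 gave -0.24 ± 0.13 (adjusted p = 0.216). LAMA3 and LAMB3, which join in 1 laminin, had values of opposite sign at 12 h, and neither passed. The log2 fold change was -0.35 ± 0.14 for LAMA3 (adjusted p = 0.109) and 0.26 ± 0.13 for LAMB3 (adjusted p = 0.207). The ratio of LAMB3 to LAMA3, per length, lay at 3 h between 2.03 and 3.51 in sheared and between 1.55 and 1.65 in static cells. At 12 h it lay between 3.53 and 4.84 in sheared and between 2.59 and 3.12 in static cells, and at 24 h between 5.20 and 7.32 in sheared and between 4.18 and 5.58 in static cells. The ranges were apart at 3 h and 12 h and overlapped at 24 h. With 3 against 3 libraries, an exact permutation test of such a ratio cannot give a p below 0.1, and none was run.

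As a share of all counts, collagen genes together held at 3 h 0.160% to 0.169% in sheared and 0.168% to 0.177% in static cells. At 12 h they held 0.154% to 0.180% in sheared and 0.197% to 0.242% in static cells, and at 24 h 0.203% to 0.260% in sheared and 0.281% to 0.350% in static cells. These are shares of raw totals, in which sheared and static libraries did not overlap at 12 h and 24 h. With totals scaled by TMM, as for every CPM value, an alternative chosen after seeing the data, they overlapped at both times, with 0.149% to 0.188% in sheared and 0.177% to 0.225% in static cells at 12 h and 0.211% to 0.361% in sheared and 0.282% to 0.394% in static cells at 24 h. Laminin genes held at 3 h 0.165% to 0.170% in sheared and 0.179% to 0.189% in static cells. At 12 h they held 0.125% to 0.1498% in sheared and 0.158% to 0.166% in static cells, and at 24 h 0.159% to 0.234% in sheared and 0.197% to 0.251% in static cells. In raw totals the laminin ranges were apart at 3 h and 12 h and overlapped at 24 h. Scaled by TMM, they were apart at 3 h, with 0.158% to 0.164% in sheared and 0.166% to 0.176% in static cells, and overlapped at 12 h, with 0.120% to 0.156% in sheared and 0.142% to 0.154% in static cells, and at 24 h, with 0.165% to 0.324% in sheared and 0.200% to 0.282% in static cells. COL6A1 and COL6A2 carry most of the collagen share. Over the 38 chains tested, 29 passed at none of the 3 times. The share of all genes that passed at none was not counted, so this count is a description only.

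In static cells, many chains changed with time in suspension. Between 12 h and 24 h, which share a batch date, 10 chains rose and 2 fell of the 36 tested. Over all 14804 genes tested in static cells, 16.9% were higher and 15.6% lower. The median log2 fold change, 24 h over 12 h, was 0.178 for the chains, beside 0.006 over all genes. The libraries of 24 h and 12 h did not overlap in 13 chains, and in 42.5% of all genes. These static libraries are also the ones the sheared cells were compared with, so the comparisons are not independent.

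The most abundant chains per length, those of type VI collagen, were among those that rose. COL6A1 had 1039, 1080 and 1475 CPM at 24 h in static cells, against 609.9, 599.8 and 755.6 CPM at 12 h, and COL6A2 had 1109, 1060 and 1780 CPM, against 650.0, 594.3 and 799.6 CPM. All libraries of 24 h were above those of 12 h, with a log2 fold change of 0.86 ± 0.14 (adjusted p = 0.000341) for COL6A1 and 0.94 ± 0.18 (adjusted p = 0.00116) for COL6A2. COL6A3, the remaining chain of the type VI trimer, fell, with 29.8, 18 and 31.2 CPM at 24 h, against 65.1, 49.7 and 73.8 CPM at 12 h (-1.26 ± 0.19, adjusted p = 0.000165). The ratio of COL6A3 to COL6A1, per length, lay at 3 h between 0.0298 and 0.0368 in sheared and between 0.0344 and 0.0415 in static cells. At 12 h it lay between 0.0185 and 0.0284 in sheared and between 0.0226 and 0.0290 in static cells, and at 24 h between 0.00552 and 0.0104 in sheared and between 0.00454 and 0.00781 in static cells.

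LAMB3 had 533.9, 556.6 and 850.1 CPM at 24 h in static cells, against 309.1, 301.4 and 350.1 CPM at 12 h (1.00 ± 0.16, adjusted p = 0.00018). The times were fully separated. Its partner LAMA3 did not pass, with 400.4, 318.0 and 477.4 CPM at 24 h, against 370.9, 364.3 and 351.6 CPM at 12 h (0.13 ± 0.14, adjusted p = 0.505).

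COL17A1, the membrane collagen of the hemidesmosome, had 30.4, 22.2 and 39.1 CPM at 24 h, against 9.22, 12.97 and 13.4 CPM at 12 h in static cells. This was the largest rise among the chains, with no overlap and a log2 fold change of 1.35 ± 0.22 (adjusted p = 0.000258). ITGB4, the integrin beta chain that binds laminin at the hemidesmosome, had a log2 fold change of 1.35 ± 0.24 (adjusted p = 0.00126), with 2181, 2484 and 4612 CPM at 24 h, against 1111, 1130 and 1377 CPM at 12 h.

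LAMB2, a beta chain of kidney and synaptic basement membranes, had 141.5, 144.5 and 209.9 CPM at 24 h, against 69.6, 69.9 and 89.6 CPM at 12 h in static cells (1.10 ± 0.16, adjusted p = 7.26e-05). COL4A5 rose by 0.88 ± 0.14 on the log2 scale (adjusted p = 0.000276) to the 24 h values given above. Sheared cells had 36.0, 27.2 and 31.3 CPM of it at 24 h and 20.7, 20.4 and 22.7 CPM at 12 h, a difference that was not tested. LAMA5 (0.47 ± 0.13, adjusted p = 0.00885), COL18A1 (0.59 ± 0.18, adjusted p = 0.017) and COL9A2 (0.86 ± 0.29, adjusted p = 0.0324) also rose. LAMA5 lost its call without the static 12 h replicate 1 (adjusted p = 0.0708). COL18A1 lost it without the static 12 h replicate 1 or 2 (adjusted p = 0.0782 and 0.0986) or the static 24 h replicate 2 or 3 (0.0584 and 0.0916). COL9A2 lost it without the static 12 h replicate 1 or 2 (0.108 and 0.156) or the static 24 h replicate 1 or 2 (0.0698 and 0.151). COL12A1, which binds to type I fibrils, fell, with 15.9, 12.1 and 11.9 CPM at 24 h, against 24.9, 24.3 and 22.0 CPM at 12 h (-0.85 ± 0.18, adjusted p = 0.00193).

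**Figure D5:**
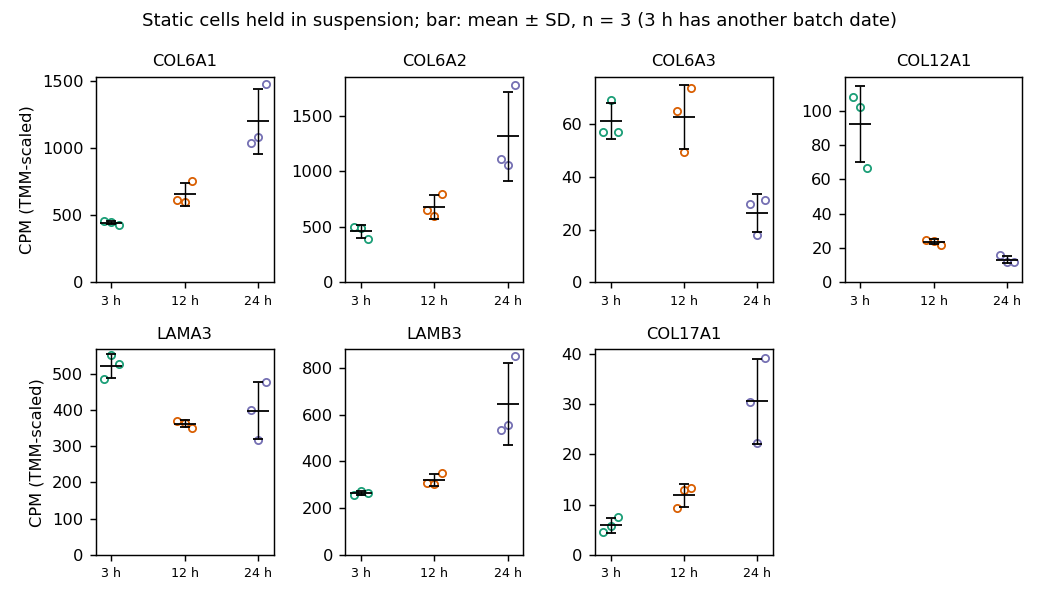
Level in TMM-scaled CPM of 7 chains in the static libraries at 3 h, 12 h and 24 h, with bars for the mean and SD of 3 libraries. COL6A1, COL6A2 and COL17A1 are higher at each later time, LAMB3 is highest at 24 h, COL6A3 is lower at 24 h, and COL12A1 is lower at each later time. The 3 h libraries have another batch date.

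Between 3 h and 12 h, 11 chains, all of them collagens, were higher in static cells at 12 h and 9 were lower, of the 36 tested. Over all genes, 21.7% were higher and 22.9% lower, and 59.6% of all genes, like 26 of the chains, had no overlap between the times. Batch date goes with this comparison. The median log2 fold change, 12 h over 3 h, was 0.435 for 26 collagen chains and -0.380 for 10 laminin chains, of which 4 were lower (LAMA3, LAMB1, LAMC1 and LAMC3) and 0 higher. All 4 laminin calls were lost with all 18 libraries in 6 groups (adjusted p = 0.0883 for LAMA3, 0.0503 for LAMB1, 0.132 for LAMC1 and 0.109 for LAMC3), and those of LAMC1 and LAMC3 also when any of 4 single static libraries, not the same 4 for both, was left out (adjusted p of up to 0.066 for LAMC1 and 0.119 for LAMC3).

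The type IV pairs that had not passed in sheared cells went opposite ways here. COL4A1 had 5.89, 5.77 and 9.25 CPM at 12 h in static cells, against 13.2, 16.7 and 14.7 CPM at 3 h, and COL4A2 had 22.7, 19.5 and 29.7 CPM, against 48.0, 46.4 and 47.2 CPM. Both fell, by 1.09 ± 0.20 (adjusted p = 0.000244) and 0.98 ± 0.19 (adjusted p = 0.000562) on the log2 scale. COL4A3 had 2.56, 2.17 and 2.89 CPM at 12 h, against 0.716, 0.684 and 1.07 CPM at 3 h, and COL4A4 had 4.28, 2.76 and 4.77 CPM, against 1.69, 1.75 and 1.41 CPM. Both rose, by 1.61 ± 0.31 (adjusted p = 0.000502) and 1.28 ± 0.30 (adjusted p = 0.00261).

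COL1A1 had 29.8, 29.2 and 36.0 CPM at 12 h in static cells, against 12.1, 12.5 and 15.5 CPM at 3 h, a log2 fold change of 1.24 ± 0.15 (adjusted p = 3.76e-06). The 28.6 to 32.5 CPM of sheared cells at 3 h overlapped with these static values of 12 h. COL8A1 had 10.3, 9.47 and 11.1 CPM at 12 h in static cells, against 5.90, 3.42 and 5.43 CPM at 3 h (1.06 ± 0.20, adjusted p = 0.000408), while sheared cells had 2.65 to 4.44 CPM at 12 h and 3.16 to 4.16 CPM at 3 h. COL9A3 (1.34 ± 0.22, adjusted p = 0.000114) and COL17A1 (1.01 ± 0.23, adjusted p = 0.00177) also rose. COL12A1 had the largest fall, with 24.9, 24.3 and 22.0 CPM at 12 h, against 107.7, 102.0 and 66.7 CPM at 3 h (-1.96 ± 0.17, adjusted p = 1.89e-07). COL5A2 fell as well (-0.59 ± 0.13, adjusted p = 0.00161). In static cells COL17A1, COL6A1 and COL6A2 rose in both intervals, COL12A1 fell in both, and COL9A2 fell and then rose. The first rise of COL6A2 was lost with all 18 libraries in 6 groups (adjusted p = 0.0516), without the static 3 h replicate 3 (0.0891) or without the static 12 h replicate 3 (0.0895), and the fall of COL9A2 without the static 3 h replicate 1 (0.0521) or the static 12 h replicate 2 (0.0642).

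Of genes that fold, cut, crosslink or bind these chains, a list of 58 was used, and 53 were tested. At 3 h none passed by edgeR or by DESeq2, and 1 had an unadjusted p below 0.05. At 12 h, 1 of the 53 genes was higher and 2 were lower, where 6.29% of all genes were higher and 4.55% lower. These counts did not exceed the share over all genes. COLGALT1, which adds galactose to collagen, was higher at 12 h (0.39 ± 0.12, adjusted p = 0.0448). DAG1, the laminin receptor dystroglycan, and SPARC, a collagen-binding protein of the matrix, were lower. DAG1 had 175.7, 207.3 and 203.2 CPM in sheared cells, against 242.1, 245.4 and 261.1 CPM in static cells (-0.36 ± 0.10, adjusted p = 0.0305). SPARC was scarce, with 3, 5 and 3 counts in sheared cells, against 16, 24 and 22 counts in static cells (-2.47 ± 0.66, adjusted p = 0.0237). Each of these 3 calls was lost when any 1 of the 12 h pools was left out, and without the pool block. The adjusted p was then up to 0.329 for COLGALT1, 0.217 for DAG1 and 0.160 for SPARC. The calls of COLGALT1 and DAG1 were also lost when any 1 of the 3 h pools was left out, and that of COLGALT1 with RLE size factors (adjusted p = 0.0508).

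At 24 h, 4 of the 53 genes were higher and 6 lower, where 9.13% of all genes were higher and 8.07% lower, so the counts lay near the share over all genes. MIA3, which helps to export procollagen from the endoplasmic reticulum, had 79.8, 63.0 and 79.7 CPM in sheared cells, against 114.1, 94.96 and 120.1 CPM in static cells. The groups did not overlap, and the call held in every alternative (-0.57 ± 0.11, adjusted p = 0.00251). SPARC was again lower, with 12, 2 and 7 counts in sheared cells, against 43, 102 and 19 counts in static cells (-2.53 ± 0.57, adjusted p = 0.006). Without the 24 h pool of replicate 2 the log2 fold change was -1.33 (adjusted p = 0.0676), and with the 24 h libraries alone the adjusted p was 0.0819. ITGA10, an integrin chain that binds collagen, was lower (-1.09 ± 0.27, adjusted p = 0.0101), as were P3H4, a partner of collagen hydroxylases (-0.59 ± 0.15, adjusted p = 0.0134), and DAG1 (-0.37 ± 0.10, adjusted p = 0.018). LOXL2, a lysyl oxidase that crosslinks collagen, was higher (0.54 ± 0.14, adjusted p = 0.0153). Without the sheared 24 h replicate 3 these last 4 calls were lost, with an adjusted p of 0.0888 for ITGA10, 0.116 for P3H4, 0.0788 for DAG1 and 0.0618 for LOXL2. The median log2 fold change of the 53 genes was 0.040 at 24 h and 0.014 at 12 h.

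In static cells between 12 h and 24 h, 19 of the 53 genes rose and 3 fell, with a median log2 fold change of 0.258, where 16.9% of all genes were higher and 15.6% lower with a median of 0.006. Among 8 partners of the basement membrane, 5 rose and none fell, of which TINAGL1, a matrix protein of basement membranes, had 0.91 ± 0.13 (adjusted p = 7.8e-05) and AGRN, the heparan sulfate proteoglycan agrin, 0.84 ± 0.16 (adjusted p = 0.000791). P3H4 (1.05 ± 0.14, adjusted p = 4e-05) and P4HB, a subunit of prolyl hydroxylase (0.72 ± 0.13, adjusted p = 0.000466), rose among the enzymes of the endoplasmic reticulum. The earlier interval differed. From 3 h to 12 h, where batch date also changes, 9 of the 53 genes were higher and 13 lower, with a median of -0.096. Over all genes, 21.7% were higher and 22.9% lower. Of the 8 basement membrane partners, 1 was then higher and 3 were lower, with a median of -0.593.

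RNA retained in the nucleus was measured as well, since the RNA was cytoplasmic. The summed level of MALAT1, NEAT1 and KCNQ1OT1 was at 3 h 48.6 to 76.0 CPM in sheared and 69.8 to 90.9 CPM in static cells, at 12 h 128.7 to 173.5 CPM in sheared and 134.0 to 156.0 CPM in static cells, and at 24 h 50.9 to 476.8 CPM in sheared and 91.3 to 166.1 CPM in static cells. Of the 5 endothelial markers, 2 had a mean of at least 1 CPM. PECAM1, 1 of these 2, had 9.70 to 108.9 CPM, while CDH5, VWF and TEK stayed below 0.257 CPM. The endothelial list summed to 40.4 to 56.0 CPM in sheared and 66.0 to 85.7 CPM in static cells at 12 h. The fibroblast list summed to 2.32 to 4.67 CPM in sheared and 5.30 to 5.78 CPM in static cells at that time. The part of these differences in the chains that were lower in sheared cells at 12 h was not tested.

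The authors' deposited tables of sheared against static cells gave the same sign for each of the 9 chains past the threshold, at each time. In the authors' deposited table for 3 h, COL1A1 was the 1 chain past 0.05, with a log2 fold change of 1.19 and an adjusted p of 7.54e-08. In the authors' deposited table for 12 h, 5 chains were lower (COL13A1, COL2A1, COL4A5, COL4A6 and COL8A1) and 0 higher of 35 with an adjusted p. In the authors' deposited table for 24 h, LAMA4 was higher and COL2A1, COL4A5 and COL4A6 were lower, while COL9A3 had an adjusted p of 0.0563, LAMA5 of 0.0637 and COL1A1 of 0.116.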

How the data were processed

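RNA of 18 PC-3 libraries was sequenced. The authors deposited 1 table of raw read counts per NCBI Gene ID and, for each time, a table of their own comparison with log2 fold changes and adjusted p-values. Per the submitters' processing notes, STAR, DESeq2 and GRCh38.p13 were used, with no version. The sources used here do not give the read counter, the annotation or the use of strand. Reads of a gene and of its antisense partner therefore cannot be told apart. Columns were matched to samples by condition, time and replicate; at 3 h the columns name condition, time and a letter.

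Of 28395 Gene IDs, 27745 had a symbol in RefSeq (GRCh38.p14, used for names and promoters). Exon lengths are unions of GENCODE 29 exons. The members and lists were chosen with earlier results of these data known. edgeR 4.0.16 in R 4.3.3 was run on the deposited counts with TMM factors, a filter on low counts (minimum count 10, minimum total 15) and the quasi-likelihood F test, with p-values adjusted over all genes (Benjamini-Hochberg, threshold 0.05). The shear model held all 18 libraries, a block for each pool and a shear effect per time (15189 genes, 6 residual degrees of freedom); the static model held the 9 static libraries with time as a factor (14804 genes, 6 residual degrees of freedom). An SE is the size of the log2 fold change divided by the square root of F. Both models were tested on simulated data, for the shear effect at each time and for static 24 h over 12 h only. Of changes of 1.5-fold put into the simulated counts, 40.3% to 50.7% were recovered, and of 4-fold changes 93.8% to 96.8%. Each size of change was put into 60 to 76 genes. False calls were 5 of 152 for shear at 3 h, 12 of 158 at 12 h and 7 of 162 at 24 h. For static 24 h over 12 h they were 10 of 166.

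The pool block rests on the study's design, which states that sheared and static libraries of 1 replicate come from 1 pool. Deviations from group means correlated as follows. At 3 h, r was 0.0881 to 0.299 between same-numbered and -0.242 to 0.130 between other libraries. At 12 h, it was -0.148 to 0.245 for the same number and -0.385 to 0.233 for others. At 24 h, it was 0.379 to 0.504 for the same number and -0.296 to -0.0924 for others. No 2 replicates agreed within sampling noise (chi-square per degree of freedom 4.30 to 134).

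Full statistics were given for chains past the threshold in any contrast, at most 12 per contrast, and for the 8 with the highest level per length; of the other genes of the pathway, up to 6 per time by adjusted p were named. Alternatives were DESeq2 1.42.0, RLE size factors, no filter, no pool block, the libraries of 1 comparison alone, and leaving out each replicate. A chain that enters the counts and sums, and a marker gene, are not reported here by name.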

Additional observations from a re-analysis of the deposited data

Results flagged for a closer look

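The shear effect of 3 chains differed between times by a test of the difference itself, edgeR's quasi-likelihood test of the effect at 12 h minus that at 3 h. COL1A1 differed by -1.61 on the log2 scale (adjusted p = 0.00113), being higher in sheared cells in all 3 pools at 3 h and lower in all 3 at 12 h, although the effect at 12 h did not pass by itself (adjusted p = 0.0926). This call held in every alternative. COL2A1 differed by -2.37 (adjusted p = 0.0157) and lost its call in 6 of 14 alternatives, with an adjusted p of up to 0.0913. COL4A6 differed by -1.13 (adjusted p = 0.0361) and also lost its call in 6 of 14, with an adjusted p of up to 0.683, that of the fit without the pool block. The 3 h libraries carry another batch date than the 12 h libraries, so that time and batch date cannot be told apart in all 3.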

How the results depend on the processing

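No value of a chain past the threshold changed sign in any alternative. Of 49 pairs of a chain and a contrast past it, 29 kept their call in all alternatives, and 78 of 700 alternative values no longer passed. Chains kept in every alternative were 1 of 1 at 3 h, 3 of 6 at 12 h, 4 of 7 at 24 h, 9 of 12 for static 24 h over 12 h and 11 of 20 for static 12 h over 3 h.

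Without the replicate block for pools, 0 chains were higher and 3 lower at 12 h, 3 were lower at 24 h, and 1 differed between 12 h and 3 h; of the pathway genes, 0 were higher and 0 lower at 12 h, and 1 was higher and 3 lower at 24 h. With no filter on low counts, 3 chains were higher at 3 h, 2 were higher at 24 h and 5 differed between 12 h and 3 h, with 7 pathway genes higher and 4 lower at 12 h and 7 higher at 24 h. DESeq2 gave 2 chains higher at 24 h (COL12A1 added) and 3 pathway genes higher and 4 lower at 12 h. RLE size factors gave 2 chains higher at 24 h and 0 pathway genes higher at 12 h. With the 6 libraries of a time alone, 4 chains were higher and 3 lower at 3 h, and 3 pathway genes were lower at 3 h, 4 higher and 4 lower at 12 h, and 1 higher and 1 lower at 24 h. Without the sheared 24 h replicate 3 alone, 2 chains were higher at 3 h and 5 differed between 12 h and 3 h, with 7 pathway genes higher and 7 lower at 12 h and 1 higher at 24 h. With all 18 libraries in 6 groups, 7 chains were higher and 6 lower in static cells at 12 h than at 3 h.

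Leaving out each replicate gave 1 to 2 chains higher at 3 h, 0 to 1 higher at 12 h, 1 to 2 higher at 24 h, 7 to 12 higher in static cells at 12 h than at 3 h, and 1 to 5 that differed between 12 h and 3 h. For pathway genes it gave 0 to 7 higher and 0 to 7 lower at 12 h, and 1 to 6 higher at 24 h. Between 12 h and 24 h, 0 chains differed in their shear effect in every alternative.

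Depth limits the scarce chains: COL1A2 had 0 counts in all static libraries of 12 h, and no fold is given. Level counts depend on gene length: 26 chains reached 1 CPM per kilobase with the longest transcript in place of the union of exons. The order of chains and the ratios per length depend on it too.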
